A study of Mus musculus with 8 samples.

Results

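The genes described here are the histone genes of the Hist1 cluster, the largest group of histone genes in the mouse genome, which lies on chromosome 13. A gene was included when its symbol started with Hist1h and its deposited normalized count was at least 10 in at least 4 of the 8 liver libraries. Of 55 such symbols among the 24972 genes listed, 42 met this rule. They were 5 of 6 H1 genes, 5 of 14 H2a genes, 13 of 15 H2b genes, 9 of 9 H3 genes and 10 of 11 H4 genes. The livers came from C57BL/6J mice injected intravenously at 10 weeks of age with AAV8, an adeno-associated virus. RNA was taken 8 weeks later, at 18 weeks. The 4 libraries of the ATF3 group came from mice given AAV8-ALB-ATF3, and the 4 of the Null group from mice given AAV8-ALB-Null, so all 8 livers carried a virus and no uninjected liver was analysed here. ALB was read as the albumin promoter, which is active in hepatocytes; the labels do not spell it out. The study asked which liver genes are regulated by ATF3, a stress-induced transcription factor of the ATF and CREB family. Its design text gives 8 mice per group, and the labels do not say whether a library is 1 mouse; p-values therefore rest on the spread between libraries, which may be technical.

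Nucleosomes are built from the core histones H2A, H2B, H3 and H4, and the linker histone H1 binds the DNA where it enters and leaves them. Most Hist1 genes are replication-dependent: their mRNAs are made mainly in S phase, carry no poly(A) tail and end just after a short stem-loop that the protein SLBP binds. Several of these genes can also give longer, polyadenylated mRNAs in cells that have stopped dividing, such as most adult hepatocytes. The libraries were made from total RNA with a kit that does not select for poly(A) tails, so both kinds of mRNA could be sequenced, and the deposited values do not separate them. Here, rose and fell mean that a gene was higher or lower in ATF3 livers at an adjusted p under 0.05 with limma, as 11.4% and 9.82% of all 13301 genes tested were.

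The histone 3′ stem-loop, 16 bases that fold into a stem and a loop of 4, was searched in GENCODE transcripts on the mm10 build, on the sense strand. It was found in 30 of the 42 genes, against 5 of 12636 tested genes whose symbols do not start with Hist (0.0396%). That background was not cleared of histone genes with other symbols, such as H2afx and H3f3b. Only annotated transcripts were searched, and several without it were short. They had 312 bases for Hist1h4k, 381 for Hist1h2bl and Hist1h2bn, 393 for Hist1h2ai and Hist1h2ak, and 411 for Hist1h3h and Hist1h3i. A stem-loop past the annotated end would be missed, so the other genes may also have one. The letters differed by class. In H1, H2a and H2b genes and in most H3 genes the core read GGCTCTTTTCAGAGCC (15 genes) or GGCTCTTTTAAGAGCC (5 genes). In H4 genes it most often read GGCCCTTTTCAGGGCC (5 genes) or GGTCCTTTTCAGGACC (2 genes). These 26-base windows, written as DNA with the stem-loop in capitals, show that difference for genes that rose (Hist1h2bf, Hist1h3b, Hist1h4f, Hist1h4j and Hist1h4i), a gene that fell (Hist1h1c) and genes that passed in neither direction (Hist1h3e and Hist1h4h).
Hist1h1c: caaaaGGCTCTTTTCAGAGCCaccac
Hist1h2bf: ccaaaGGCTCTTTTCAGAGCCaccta
Hist1h3b: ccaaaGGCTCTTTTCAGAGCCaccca
Hist1h3e: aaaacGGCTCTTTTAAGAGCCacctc
Hist1h4f: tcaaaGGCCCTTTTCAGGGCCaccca
Hist1h4h: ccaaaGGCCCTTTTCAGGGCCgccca
Hist1h4j: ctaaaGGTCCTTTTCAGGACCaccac
Hist1h4i: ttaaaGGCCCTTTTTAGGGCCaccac
Hist1h4f, which rose, and Hist1h4h, whose groups had almost the same mean, held the same core.

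Promoter sequences, from 250 bases before to 50 after the RefSeq start on GRCm38.p6, were matched for 39 of the 42 genes; Hist1h2bc, Hist1h3a and Hist1h3f had no entry. The matches of 4 short motifs are in capitals, in either orientation and anywhere in the sequence. They are TATAAA, the letters of the TATA box, and CCAAT, the box bound by NF-Y. The others are AAACACA, an element of H1 promoters, and ATTTGCAT, the octamer of H2b promoters. The promoters of the 2 H4 genes with the largest called log2 changes within the class, Hist1h4j and Hist1h4k, are shown beside that of Hist1h4h, which did not pass.
Hist1h4j (chr13:21734784-21735083, plus strand): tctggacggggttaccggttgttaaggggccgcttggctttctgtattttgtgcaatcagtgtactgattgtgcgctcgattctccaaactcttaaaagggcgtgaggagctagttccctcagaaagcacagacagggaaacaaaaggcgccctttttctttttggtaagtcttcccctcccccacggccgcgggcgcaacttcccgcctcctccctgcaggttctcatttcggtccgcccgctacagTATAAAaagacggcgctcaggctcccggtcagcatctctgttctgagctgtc
Hist1h4k (chr13:21750504-21750803, minus strand): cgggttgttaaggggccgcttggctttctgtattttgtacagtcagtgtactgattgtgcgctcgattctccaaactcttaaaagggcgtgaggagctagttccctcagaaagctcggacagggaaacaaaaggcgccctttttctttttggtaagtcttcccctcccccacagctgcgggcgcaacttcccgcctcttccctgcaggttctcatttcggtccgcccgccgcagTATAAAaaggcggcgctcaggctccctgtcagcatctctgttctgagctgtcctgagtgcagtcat
Hist1h4h (chr13:23530794-23531093, plus strand): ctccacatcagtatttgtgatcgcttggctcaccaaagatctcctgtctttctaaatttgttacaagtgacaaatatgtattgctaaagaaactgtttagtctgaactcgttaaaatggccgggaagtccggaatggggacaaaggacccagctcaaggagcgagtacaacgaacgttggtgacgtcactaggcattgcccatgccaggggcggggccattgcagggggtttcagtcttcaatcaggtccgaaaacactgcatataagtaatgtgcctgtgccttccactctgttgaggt
Placed with an offset of 14 bases, the Hist1h4j and Hist1h4k promoters had the same base at 274 of 286 positions (95.8%). Of 741 pairs among the 39 promoters, 2 had at least 80% the same; the other was Hist1h2bq and Hist1h2br, with all 300 bases the same. The median over pairs was 33.2%.

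The promoters of the linker genes Hist1h1a, which rose, and of Hist1h1c and Hist1h1e, which fell, differed in these motifs. The AAACACA element stood in the promoters of both genes that fell and not in that of Hist1h1a.
Hist1h1a (chr13:23763418-23763717, plus strand): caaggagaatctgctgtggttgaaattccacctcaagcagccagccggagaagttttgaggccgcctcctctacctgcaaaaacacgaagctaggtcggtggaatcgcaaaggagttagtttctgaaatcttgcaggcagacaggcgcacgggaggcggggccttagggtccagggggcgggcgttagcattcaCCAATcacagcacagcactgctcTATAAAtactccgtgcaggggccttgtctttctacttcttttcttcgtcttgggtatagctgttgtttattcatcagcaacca
Hist1h1c (chr13:23738557-23738856, plus strand): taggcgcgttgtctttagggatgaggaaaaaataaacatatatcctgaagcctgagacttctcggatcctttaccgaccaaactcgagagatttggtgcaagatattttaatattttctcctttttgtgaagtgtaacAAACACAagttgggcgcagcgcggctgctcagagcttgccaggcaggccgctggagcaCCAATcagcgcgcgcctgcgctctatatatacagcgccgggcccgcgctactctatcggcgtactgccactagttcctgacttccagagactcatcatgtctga
Hist1h1e (chr13:23622509-23622808, minus strand): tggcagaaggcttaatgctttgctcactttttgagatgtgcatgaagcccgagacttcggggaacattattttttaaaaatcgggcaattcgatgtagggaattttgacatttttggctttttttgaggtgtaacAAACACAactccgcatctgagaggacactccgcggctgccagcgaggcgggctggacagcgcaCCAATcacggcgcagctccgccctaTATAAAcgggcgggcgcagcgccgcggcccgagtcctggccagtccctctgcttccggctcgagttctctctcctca
It was also in the promoters of Hist1h1d, which rose, and of Hist1h1b, so the motif was in 4 of 5 H1 promoters. It was in 7.18% of all 32851 promoters.

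Among the 39 promoters matched, those of genes that run in opposite directions overlapped in 3 cases. Hist1h2ak and Hist1h2bn shared 263 bases, and Hist1h2ai and Hist1h2bl shared 272. All 4 of these genes rose, but Hist1h2ai and Hist1h2bl met the inclusion rule through the ATF3 libraries, in which they were higher. Of the 4 only Hist1h2ak kept its call with each library left out. The part of the shared promoters in these rises was not tested. Hist1h2ap and Hist1h2br shared 233 bases, and neither was called. Hist1h2ac (minus strand, from 23683948) and Hist1h2bc (plus strand, from 23684199) also run in opposite directions side by side. Hist1h2bc had no promoter entry, so that pair was not compared, and neither gene was called. The promoter shown is that of Hist1h2ak.
Hist1h2ak (chr13:21753863-21754162, minus strand): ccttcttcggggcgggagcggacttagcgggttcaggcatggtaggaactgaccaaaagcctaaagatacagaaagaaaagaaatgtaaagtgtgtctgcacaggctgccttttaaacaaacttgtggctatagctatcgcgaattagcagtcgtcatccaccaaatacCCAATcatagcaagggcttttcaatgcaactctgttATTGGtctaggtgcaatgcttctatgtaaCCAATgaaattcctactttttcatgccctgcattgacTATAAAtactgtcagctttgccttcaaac

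The deposited normalized counts summed to 23.9 to 28.4 M per library, of which the 42 genes held 0.0259 to 0.0377%. Sequencing depth, estimated roughly from the step between low values, ranged from 17.2 to 48.5 M reads, so 10 normalized counts stood for about 6.38 reads in Null 4 and 20.3 reads in ATF3 1. Atf3 itself had 5611 to 7053 normalized counts in ATF3 libraries, against 20.3 to 24.5 in Null libraries. Null 4 lay apart from the other Null libraries on the second principal component (16.7% of the variance), and it was the highest of the Null libraries for 21 of the 42 genes. Results that rest on it are therefore also given without it. At the edge of the rule, the fourth highest value was 10.7 for Hist1h2bk, just inside, and 9.37 for Hist1h2af, just outside. Hist1h2ai, Hist1h2bl and Hist1h3h reached 10 in all 4 ATF3 libraries and in at most 1 Null library, so they met the rule through the group in which they were higher.

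Transcripts of many Hist1 genes were more abundant in ATF3 livers, while the 4 genes with the highest levels per length did not pass the test. By normalized count the order differed: Hist1h1e, which fell, had a mean of 1030, above Hist1h4h (896) and Hist1h4d (832), which are among those 4. With limma on log2(normalized count + 1), over 13301 genes and with Benjamini-Hochberg adjustment at 0.05, 15 of the 42 genes were higher and 2 were lower in ATF3 livers. Among all genes tested 11.4% were called higher and 9.82% lower. The 15 include Hist1h2ai, Hist1h2bl and Hist1h3h, which met the inclusion rule through the group in which they were higher. They also count among the rises of their classes and of the subsets below. Of the 27 genes with at least 10 in all 8 libraries, 11 rose and 2 fell, with a median log2 change of 0.72. The log2 change was above 0 for 35 genes and below 0 for 7, with a median of 0.82 over the 42 genes and 0.01 over all genes tested. In 12 genes every ATF3 library lay above every Null library and in 2 every one lay below; over all genes tested these shares were 13.7% and 12.6%. The split depended on the scaling: with libraries set to equal sums over the genes tested, 2466 genes were higher and 838 lower, against 1513 and 1306 with the deposited scaling, and 19 of the 42 genes rose and 2 fell. In the deposited TPM, for which 11249 genes and 41 of the 42 passed the filter, 1379 genes were higher and 1242 lower after rescaling each library by its median of ratios, and 17 of the 41 rose and 2 fell. Without rescaling, 219 genes were higher and 47 lower, and 10 of the 41 rose and none fell. The median-of-ratios factor of these TPM was 0.152 in Null 1, against 1.13 to 1.63 in ATF3 libraries and 1.10 to 1.26 in the other Null libraries. In bulk tissue, fewer cells of a type and less RNA per cell cannot be told apart.

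**Figure D1:**
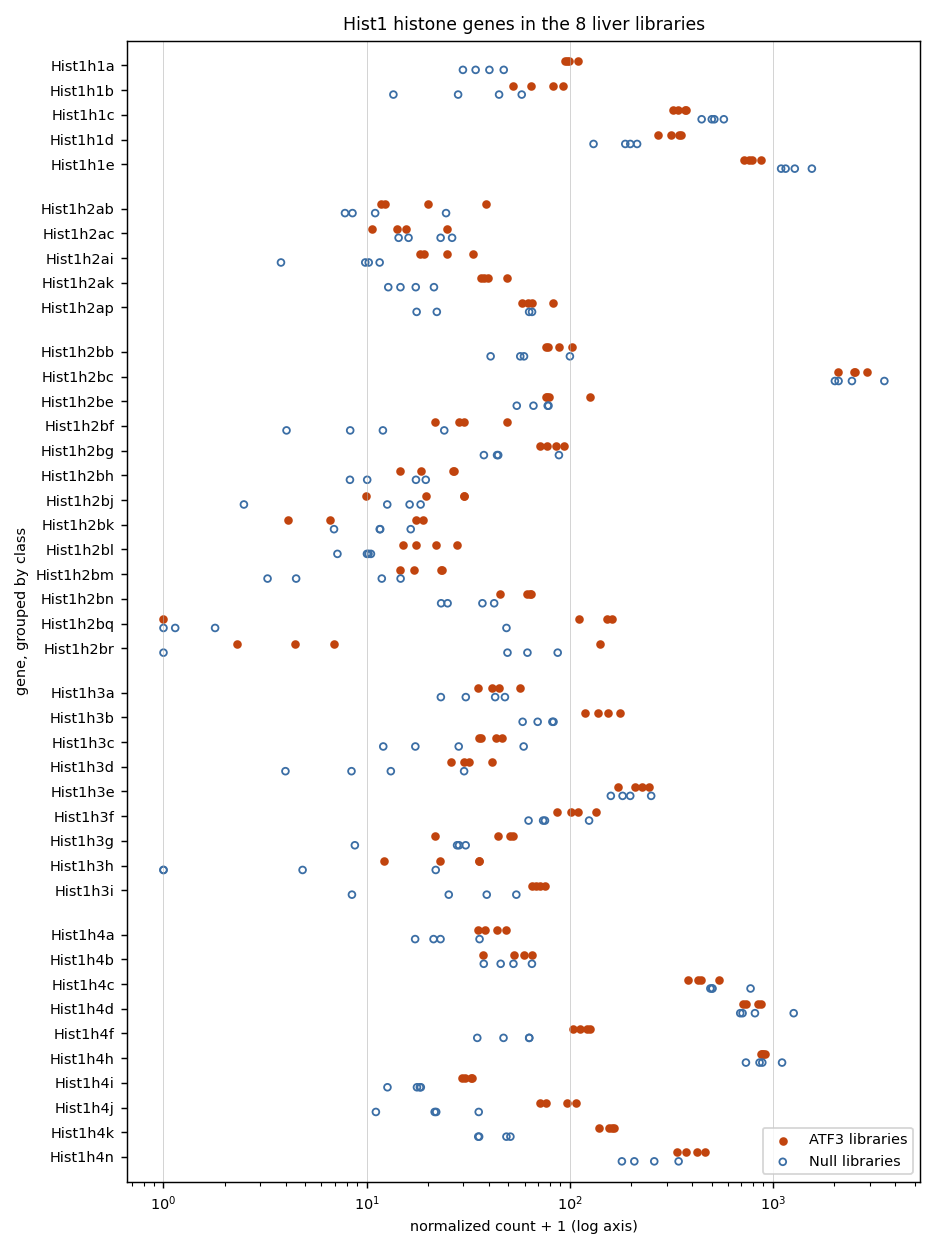
Normalized count + 1 (log axis) of each of the 42 genes, grouped by class, with 1 point per library: filled points are ATF3 libraries and open points Null libraries. The points of Hist1h4k, Hist1h4j and Hist1h1a stand apart by group, ATF3 to the right, while those of Hist1h2bc and Hist1h4h lie over each other.

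**Figure D2:**
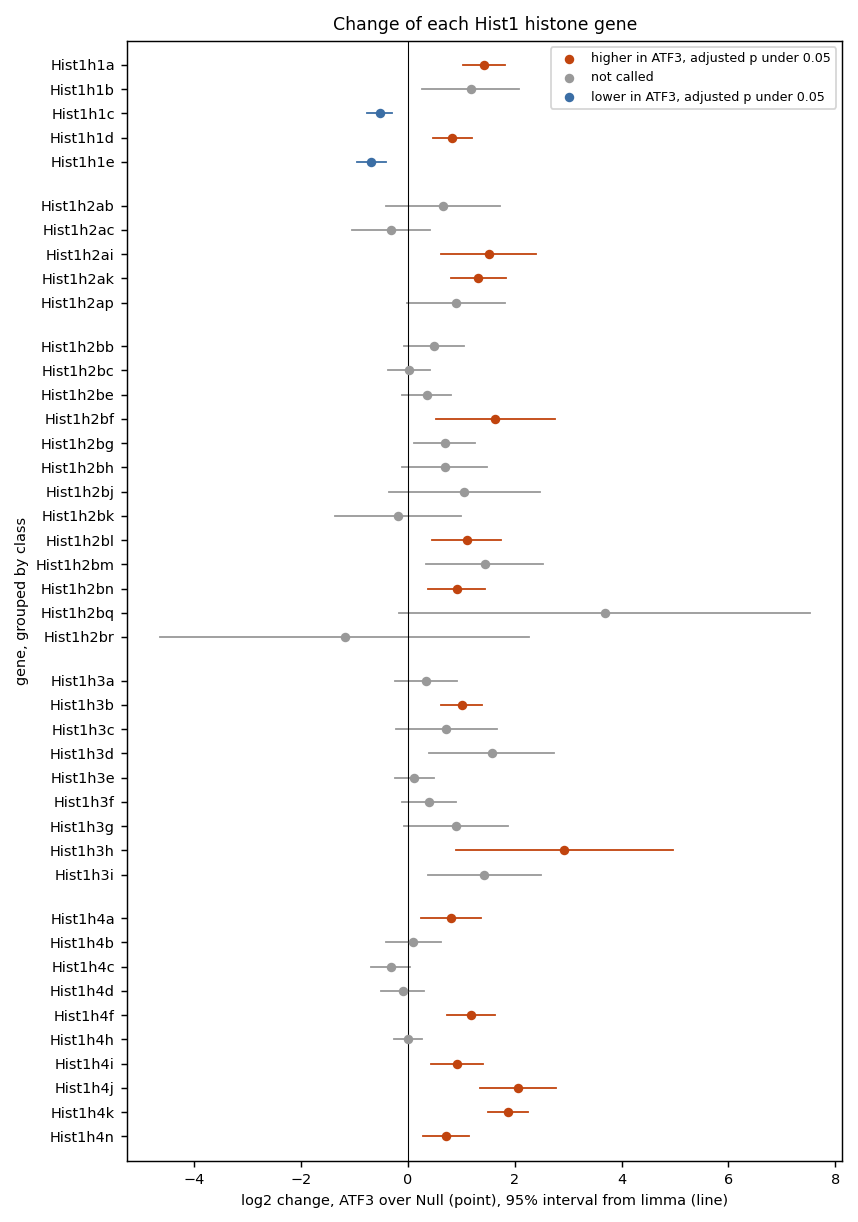
Log2 change, ATF3 over Null, of each of the 42 genes (points) with the 95% interval from limma (lines). Of the 42 genes, 15 are higher, 2 are lower and 25 are not called, and both lower genes, Hist1h1c and Hist1h1e, are linker histones; in the TPM without rescaling these 2 lie above 0.

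The linker histone genes were the only class with calls in both directions. Hist1h1c and Hist1h1e, the most abundant linker genes here, fell, while Hist1h1a and Hist1h1d rose. Hist1h1e had 721, 791, 874 and 759.7 normalized counts in ATF3 livers, against 1284, 1099, 1157 and 1558 in Null livers. Hist1h1c had 342, 367, 371 and 323 in ATF3 livers, against 574, 500.3, 515 and 446 in Null livers. For both genes every ATF3 library was below every Null library. Hist1h1e fell by 0.69 on the log2 scale (SE 0.12, adjusted p = 0.00285) and Hist1h1c by 0.53 (SE 0.11, adjusted p = 0.0056), but in the TPM without rescaling, where the median of all genes was 0.75, their log2 changes were 0.30 and 0.44 and not called. Hist1h1d had 345, 271, 314 and 352 normalized counts in ATF3 livers, against 130.1, 198, 187 and 214 in Null livers. Hist1h1a had 94.2, 98.7, 96.1 and 109 in ATF3 livers, against 28.8, 33.4, 46.4 and 39.3 in Null livers. Here every ATF3 library was above every Null library. The log2 change was 1.42 for Hist1h1a (SE 0.18, adjusted p = 0.000319) and 0.83 for Hist1h1d (SE 0.16, adjusted p = 0.00557). Hist1h1b had 92.0, 63.7, 51.4 and 81.8 in ATF3 livers, against 43.9, 27.2, 57.1 and 12.6 in Null livers. ATF3 3 lay below Null 3, and the gene missed the threshold (log2 change 1.18, adjusted p = 0.066) but passed without Null 3 (1.47).

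The 5 linker genes together were less abundant in ATF3 livers and differently made up. They summed to 1594, 1592, 1707 and 1625 normalized counts in ATF3 livers, against 2060, 1858, 1962 and 2270 in Null livers, so every ATF3 library was below every Null library. The mean was 1629 ± 53.8 in ATF3 livers and 2038 ± 175 in Null livers (SD, n = 4 each), a ratio of 0.8, or 0.777 to 0.831 with each library left out. The direction turned in the TPM without rescaling, where the 5 genes summed to 113 to 166 in ATF3 livers, against 19.8 to 176 in Null livers, a ratio of 1.25 that was 0.977 without Null 1. Hist1h1c and Hist1h1e made up 69.8% ± 3.58 of the linker counts in ATF3 livers and 87.4% ± 2.23 in Null livers (SD, n = 4 each). Per transcript length, after rescaling the deposited TPM to a common median, Hist1h1e had 47.6 ± 3.7 TPM in ATF3 livers and 77.5 ± 12.2 in Null livers (SD, n = 4 each). Hist1h1c had 23.5 ± 1.42 in ATF3 livers and 34.2 ± 3.84 in Null livers, less than Hist1h1e in both groups. The annotated Hist1h1e transcript overlaps Hist1h2be and Gm11398 on the same strand, and 34.7% of its 31-base stretches occur in transcripts of other genes, so part of its value could belong to them. For Hist1h1c that share was 11.4%, and for Hist1h1a 0.281%.

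**Figure D3:**
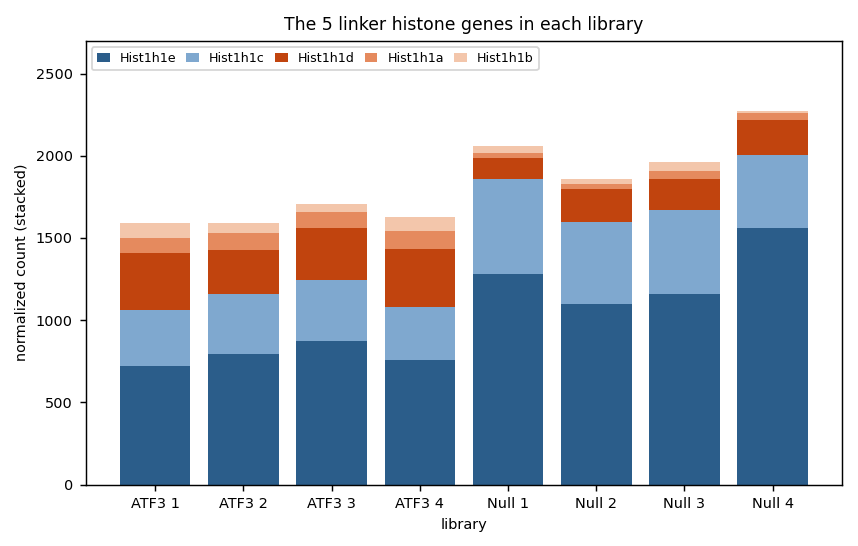
Stacked normalized counts of the 5 linker histone genes in each library, ATF3 libraries on the left. The blue parts (Hist1h1e and Hist1h1c) are shorter in all 4 ATF3 libraries than in any Null library, and the orange parts (Hist1h1d, Hist1h1a and Hist1h1b) taller.

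Among the H2a genes, which encode the partner of H2B in the nucleosome, 2 of 5 rose, none fell, and the median log2 change was 0.90. Hist1h2ak had 36.8, 48.4, 35.8 and 38.7 normalized counts in ATF3 livers, against 16.5, 13.7, 11.8 and 20.5 in Null livers. Hist1h2ai had 32.6, 18.2, 24 and 17.3 in ATF3 livers, against 9.25, 2.79, 10.6 and 8.85 in Null livers. Neither gene's groups overlapped. The log2 change was 1.32 for Hist1h2ak (SE 0.23, adjusted p = 0.00272) and 1.51 for Hist1h2ai (SE 0.40, adjusted p = 0.0226); Hist1h2ai lost its call without ATF3 1 (1.34) or ATF3 3 (1.48). Hist1h2ap, the H2a gene with the highest level per length, had 61.5, 81.5, 57.4 and 64.5 in ATF3 livers, against 64.3, 21.2, 16.6 and 62.2 in Null livers. Null 1 and Null 4 reached the ATF3 range, Null 2 and Null 3 did not, and the gene was not called (0.90, interval -0.02 to 1.82); without Null 4 it passed (1.18). Hist1h2ab and Hist1h2ac, at 9.68 to 37.7 normalized counts in ATF3 livers and 6.83 to 25.4 in Null livers, overlapped between groups and were not called. All of these but Hist1h2ac share most of their 31-base stretches with other transcripts, from 63.0% for Hist1h2ab to 93.4% for Hist1h2ap, so the authors' counting could have split reads between copies.

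The H2b genes divided between 1 abundant gene whose groups overlapped and many at lower levels, of which 3 rose and none fell. Hist1h2bc held 81.3% ± 2.38 of the H2b counts in ATF3 livers and 88.1% ± 0.607 in Null livers (SD, n = 4 each). Its values were 2102, 2910.4, 2527 and 2549.8 normalized counts in ATF3 livers, against 2455, 2109, 2023 and 3546 in Null livers. The highest and the lowest of the 8 values were both in Null libraries. Its log2 change was 0.02, with a 95% interval of -0.37 to 0.41. Hist1h2bn had 63.6, 60.4, 44.5 and 63.1 normalized counts in ATF3 livers, against 22.3, 24.1, 36.2 and 41.5 in Null livers. Hist1h2bl had 14.1, 26.9, 16.6 and 21 in ATF3 livers, against 6.19, 9.51, 9.05 and 9.22 in Null livers. Hist1h2bf had 29.2, 48.0, 20.7 and 27.6 in ATF3 livers, against 11, 7.31, 3.04 and 23.1 in Null livers. Only Hist1h2bf overlapped, where Null 4 lay above ATF3 3. The log2 changes were 0.91 (SE 0.24, adjusted p = 0.022) for Hist1h2bn, 1.10 (SE 0.29, adjusted p = 0.0237) for Hist1h2bl and 1.64 (SE 0.50, adjusted p = 0.0414) for Hist1h2bf. None of these 3 calls held with every library left out in turn: Hist1h2bf kept its call only without Null 4, Hist1h2bn lost its call in 5 of 8 cases and Hist1h2bl in 3.

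Among the other H2b genes, 3 passed the threshold when a Null library was left out. Hist1h2bg had 76.8, 84.5, 70.7 and 92.5 normalized counts in ATF3 livers, against 36.8, 42.9, 43.5 and 87.6 in Null livers, and Hist1h2bb had 75.7, 101, 77.6 and 87.5 in ATF3 livers, against 58.6, 39.8, 56.1 and 99.3 in Null livers. In both genes only Null 4 reached the ATF3 range. They were not called (log2 changes 0.69 and 0.49, adjusted p = 0.0817 and 0.2), and passed without Null 4 (0.96 and 0.73). Hist1h2bm had 16.1, 22.6, 13.6 and 22.3 in ATF3 livers, against 3.50, 2.25, 13.7 and 10.9 in Null livers, and passed without Null 3 or Null 4 (1.79 and 1.68) but not with both (1.44, adjusted p = 0.0651). Hist1h2be had 77.9, 125, 76.4 and 75.6 in ATF3 livers, against 53.9, 77.7, 65.4 and 77.0 in Null livers, with ATF3 2 apart from the rest. Hist1h2be, Hist1h2bh, Hist1h2bj and Hist1h2bk were not called and overlapped between groups.

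Hist1h2bq and Hist1h2br are near-identical copies, and most of the value stood at a different copy in different libraries. Of the 31-base stretches of Hist1h2bq 98.3% occur in other transcripts, and of Hist1h2br 89.5%, almost all of them in each other. Hist1h2bq had 151, 0, 110.0 and 160.1 normalized counts in ATF3 livers, against 0, 0.142, 47.9 and 0.795 in Null livers. Hist1h2br had 3.46, 139, 1.31 and 5.91 in ATF3 livers, against 86.4, 48.4, 0 and 61.0 in Null livers. In each library nearly all of the value stood at 1 of the 2 copies, and neither copy was called. Their sum, formed after these values were seen, was 155, 139, 111 and 166 in ATF3 livers, against 86.4, 48.6, 47.9 and 61.8 in Null livers, and the groups did not overlap. The log2 change of the sum was 1.24 (SE 0.21, adjusted p = 0.00242 with limma).

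**Figure D4:**
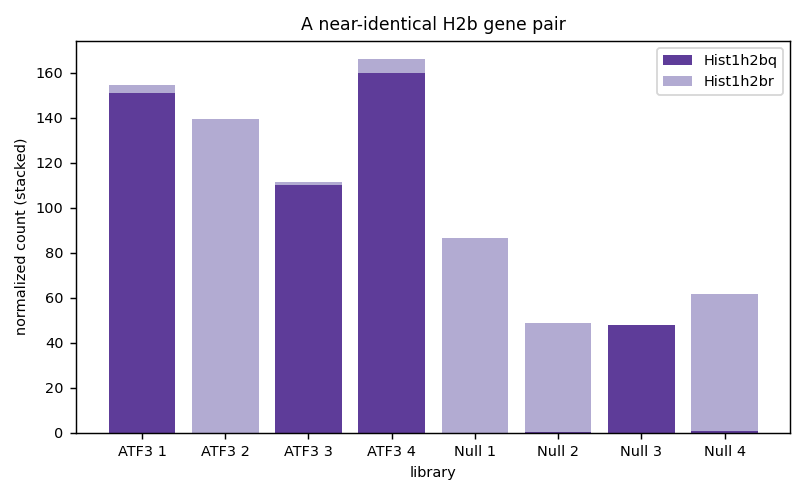
Stacked normalized counts of Hist1h2bq and Hist1h2br in each library, ATF3 libraries on the left. Each bar is almost wholly 1 gene, and the bars of the 4 ATF3 libraries (111 to 166) are all taller than those of the 4 Null libraries (47.9 to 86.4).

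All 9 H3 genes had a log2 change above 0, with a median of 0.90, and 2 of them rose. Hist1h3b had 118, 177, 154 and 137 normalized counts in ATF3 livers, against 81.3, 57.7, 68.6 and 82.3 in Null livers. Every ATF3 library was above every Null library, and the log2 change was 1.0 (SE 0.17, adjusted p = 0.00241). Hist1h3h had 22.0, 34.8, 35 and 11.1 in ATF3 livers, against 20.9, 3.84, 0 and 0 in Null livers. Null 1 lay above ATF3 4, 2 Null libraries were listed at 0, and the fitted log2 change of 2.93 (SE 0.91, adjusted p = 0.0448) depends on the added 1. It lost its call in 7 of 8 cases when a library was left out, and 94.2% of its 31-base stretches occur in other transcripts. Hist1h3e, the H3 gene with the highest level per length, had 209, 245, 172 and 225 in ATF3 livers, against 181, 198, 159 and 251 in Null livers. The groups overlapped throughout, with a log2 change of 0.12 and an interval of -0.25 to 0.48. Its share of the H3 counts was 29.6% ± 1.71 in ATF3 livers and 40.4% ± 5.42 in Null livers (SD, n = 4 each).

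Of the other H3 genes, 4 passed the threshold when a Null library was left out. Hist1h3i had 70.4, 64.1, 75.0 and 67.6 normalized counts in ATF3 livers, against 38.1, 24.4, 53.6 and 7.47 in Null livers. Its groups did not overlap, yet the spread of the Null values left it short of the threshold (log2 change 1.43, adjusted p = 0.0574); it passed without Null 3 (1.79) or Null 4 (0.89). Hist1h3d had 40.4, 30.9, 24.9 and 29.2 in ATF3 livers, against 29.2, 12.2, 7.43 and 2.99 in Null livers, and passed without Null 1 (2.07), against an adjusted p of 0.0585 with all libraries. Hist1h3f had 101, 109, 85.4 and 134 in ATF3 livers, against 61.8, 74.6, 73.0 and 124 in Null livers. Hist1h3c had 42.4, 45.4, 35.4 and 34.9 in ATF3 livers, against 27.4, 11.1, 16.4 and 58.4 in Null livers. In both of these Null 4 was the only Null library within or above the ATF3 range, and both passed without it (0.60 and 1.15), against adjusted p-values of 0.256 for Hist1h3f and 0.264 for Hist1h3c with all libraries. The 9 H3 genes summed to 718 ± 73.4 normalized counts in ATF3 livers and 489.6 ± 82.1 in Null livers (SD, n = 4 each), a ratio of 1.47.

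The H4 genes held the most calls of any class: 6 of 10 rose and none fell. Hist1h4k had 160.1, 139, 164 and 156 normalized counts in ATF3 livers, against 34.5, 50.1, 47.8 and 34.8 in Null livers. Hist1h4j had 75.5, 70.7, 96.3 and 107 in ATF3 livers, against 21, 20.6, 10.1 and 34.7 in Null livers. In both genes the lowest ATF3 library had more than the highest Null library. The mean was 3.70-fold higher for Hist1h4k (log2 change 1.88, SE 0.17, adjusted p = 3.64e-05) and 4.04-fold higher for Hist1h4j (2.06, SE 0.32, adjusted p = 0.00141). These are the H4 genes whose promoters had the same base at 95.8% of the positions compared. Of the 31-base stretches of Hist1h4j 29.4% occur in transcripts of other genes, and of Hist1h4k 86.2%, most often of Hist1h4h for Hist1h4j and of Hist1h4a for Hist1h4k. Hist1h4f had 125, 102, 121 and 111 normalized counts in ATF3 livers, against 34.1, 46.3, 62.3 and 62.2 in Null livers. Hist1h4i had 31.6, 32.2, 29.4 and 28.4 in ATF3 livers, against 17.3, 17.5, 11.7 and 16.7 in Null livers. Neither overlapped, with log2 changes of 1.19 (SE 0.20, adjusted p = 0.00246) and 0.92 (SE 0.22, adjusted p = 0.0134).

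Hist1h4n had 336, 425, 375 and 463 normalized counts in ATF3 livers, against 179.9, 207, 260.1 and 343 in Null livers. Hist1h4a had 47.4, 37.5, 34.4 and 42.6 in ATF3 livers, against 16.3, 20.4, 22.1 and 35 in Null livers. In both genes Null 4 lay just above the lowest ATF3 library. Hist1h4n rose by a log2 change of 0.72 (SE 0.19, adjusted p = 0.0243) and Hist1h4a by 0.80 (SE 0.25, adjusted p = 0.0449), and leaving out 1 library ended the call in 5 and 7 of 8 cases. Of the 31-base stretches of Hist1h4n 87.5% occur in other transcripts, most often of Hist1h4m. The H4 genes with the highest levels per length, other than Hist1h4n, were not called. Hist1h4d had 737, 870.2, 716 and 844 normalized counts in ATF3 livers, against 817, 709.6, 691 and 1268 in Null livers. Hist1h4h had 885, 912, 879 and 894 in ATF3 livers, against 888, 737, 860.5 and 1111 in Null livers. Hist1h4c had 429, 542, 445 and 383 in ATF3 livers, against 501, 492, 504 and 777 in Null livers. In all 3 the highest value was in Null 4 and the groups overlapped. The 95% intervals of their log2 changes were -0.50 to 0.30 for Hist1h4d, -0.26 to 0.27 for Hist1h4h and -0.69 to 0.05 for Hist1h4c. Together these 3 genes made up 70.8% ± 2.04 of the H4 counts in ATF3 livers and 83.7% ± 1.94 in Null livers, while Hist1h4j and Hist1h4k made up 8.05% ± 0.999 in ATF3 livers and 2.34% ± 0.487 in Null livers (SD, n = 4 each). Hist1h4b, at 36.6 to 64.4 in ATF3 livers and 36.8 to 64.2 in Null livers, had a log2 change of 0.10.

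The ratio of the summed counts, ATF3 over Null, was 0.8 for H1, 1.72 for H2a, 1.08 for H2b, 1.47 for H3, 1.08 for H4 and 1.04 for all 42 genes. Null 4 had the highest sum of any library in H1, H2b, H4 and all 42 genes together. Without Null 4 the ratio was 0.831 for H1, 2.01 for H2a, 1.24 for H2b, 1.58 for H3, 1.22 for H4 and 1.15 for all 42 genes. The H4 genes summed to 2880 to 3168 normalized counts in ATF3 livers, against 2346 to 2573 in the Null livers other than Null 4 and 3719 in Null 4, so the H4 groups overlapped only through that library. Of the 9 genes with a mean of at least 200 normalized counts, 2 rose and 2 fell, with a median log2 change of 0.01. Of the 33 genes under 200, 13 rose and none fell, with a median of 0.92. Levels between genes were compared as TPM, which divides by transcript length, though the lengths behind the deposited TPM are not known. The 4 highest were Hist1h4d (222 in ATF3 livers and 245 in Null livers), Hist1h2bc (188 in ATF3 and 189.9 in Null), Hist1h4h (158 in ATF3 and 159.8 in Null) and Hist1h4c (119 in ATF3 and 151 in Null), and none of them was called. Over the 42 genes the Spearman correlation of this level with the log2 change was -0.34, a description across genes that share libraries and reads. The added 1 makes the changes of genes with low values smaller.

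**Figure D5:**
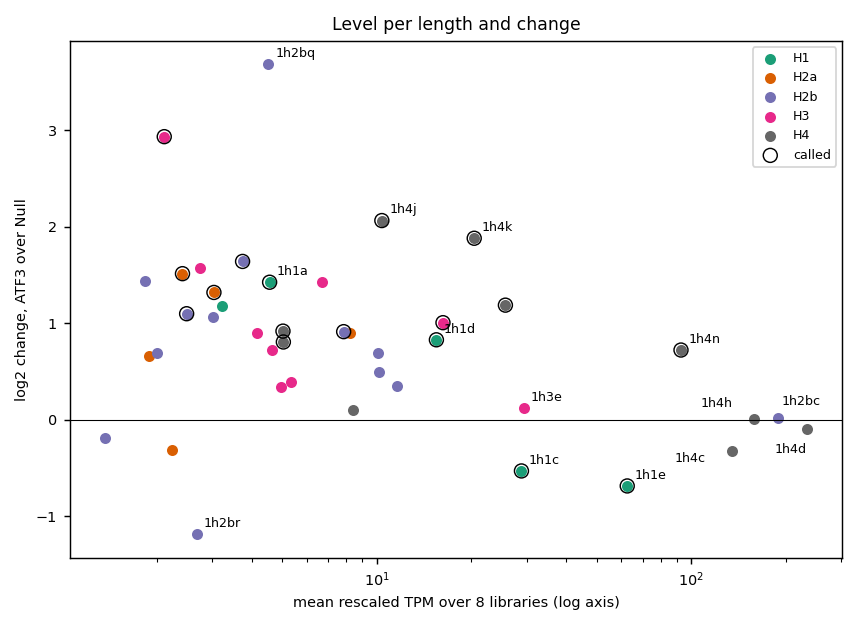
Log2 change, ATF3 over Null, against the mean TPM over the 8 libraries after rescaling (log axis), 1 point per gene, coloured by class, with called genes ringed. Genes above 100 TPM lie near or below 0, and those called higher lie further to the left, Hist1h4n being the rightmost of them.

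The genes lie in 3 groups along chromosome 13. Between 21.72 and 21.84 Mb (mm10), 8 of 14 genes rose and none fell, with a median log2 change of 1.37. This group holds Hist1h4j, Hist1h4k, Hist1h4n, Hist1h2ak and Hist1h2bn. It also holds Hist1h2ai, Hist1h2bl and Hist1h3h, which met the inclusion rule through the ATF3 libraries, in which they were higher. Between 23.53 and 23.76 Mb, 6 of 25 rose and 2 fell, with a median of 0.49, and at 22.04 Mb 1 of 3 rose. The groups differ in abundance and in shared sequence as well as in position, and the part of each was not tested. Of the genes without a histone product that lie among them and were tested, Abt1, Hfe and Zfp322a, none was called; their log2 changes were -0.02, -0.26 and -0.03. Genes with at least 35% of their 31-base stretches in other transcripts held 12 of the 15 rises (12 of 29, none lower), and genes under 35% held 3 rises and both falls (of 13). Hist1h1e, which fell, lay just under this cut at 34.7%, and Hist1h4i, which rose, just over it at 35.6%.

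The transcript ends annotated in GENCODE were set beside the changes. The annotation behind the deposited values is not known, so reads in the longer ends may not have been counted. Hist1h1d, annotated at 7425 bases, had means of 251 normalized counts and 15.5 rescaled TPM. Hist1h1a, at 741 bases, had 68.3 and 4.56. The deposited TPM thus did not follow these annotated lengths. In 14 genes the annotated transcript was unspliced and ran at least 100 bases past the stem-loop, and 4 genes had a spliced transcript. Of the 14 extended genes 4 rose and 2 fell, with a median log2 change of 0.54. Of the 24 other genes 11 rose and none fell, with a median of 1.03. These 24 include the unspliced genes in which no stem-loop was found, whose end past it could not be measured. Of all 12 genes without a stem-loop found, 7 rose and none fell. None of the 4 spliced genes was called, so these 7 are among the 11 rises. Of the 30 genes with a stem-loop, 8 rose and 2 fell. The 11 rises thus rest in part on ends that were not measured. The annotation ends 840 bases past the stem-loop for Hist1h1c, 1153 past it for Hist1h1e, 770 for Hist1h4d and 454 for Hist1h4c, none of which rose. Hist1h1d, with the longest annotated end (4884 bases), Hist1h4j (385 bases), Hist1h4i (330) and Hist1h4a (108) did rise, so the annotation did not separate the calls. AATAAA or ATTAAA, the letters of the poly(A) signal, stood in the last 50 bases of 4 of the 14 extended genes: Hist1h1c, which fell, and Hist1h4a, Hist1h4i and Hist1h4j, which rose. Whether reads came from short or long mRNAs was not tested, since the values are sums per gene.

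Promoter motifs were counted by class. CCAAT was in all 29 H1, H2a, H2b and H3 promoters matched and in 3 of 10 H4 promoters, against 37.4% of all promoters. GGTCC, the core of the H4 promoter element bound by HINFP, was in 9 of 10 H4 promoters and in 45.5% of all. ATTTGCAT was in 4 of 12 H2b and 2 of 5 H2a promoters, against 1.74% of all, and none of these 6 genes was called, though Hist1h2bb, Hist1h2bg and Hist1h2bm passed without Null 4. TTTNGCGC, letters of the kind that E2F factors bind, was in 6 of 12 H2b promoters, against 1.38% of all. TATAAA was in 23 of 39 promoters, against 13.6% of all. Of these 23 genes 13 rose and 1 fell, and of the 16 without it 2 rose and 1 fell. Matches were counted anywhere in the sequence and in either orientation, so a match need not be a TATA box. In Hist1h4f, which rose, the only match opened the sequence, 250 bases before the start. TGACGTCA, letters that factors of the ATF and CREB family are known to bind, was in the promoters of Hist1h4a, Hist1h4h and Hist1h2bj (3 of 39), against 1.79% of all promoters. TGANTCA, the related AP-1 letters, was in those of Hist1h1b, Hist1h2ai and Hist1h2bl, against 7.81% of all. A match in these letters is a description of the sequence only.

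Histone genes outside the cluster were set beside these. Of 19 tested, 2 rose and 2 fell, near the shares of all genes tested (11.4% and 9.82%), with a median log2 change of -0.11. H3f3b, a gene of the replacement variant of H3 whose mRNA is polyadenylated, had 4611, 5059, 6066 and 5149.9 normalized counts in ATF3 livers, against 3021, 3612, 2976 and 2006 in Null livers (log2 change 0.87, adjusted p = 0.00457). H1f0, the linker histone of non-dividing cells, fell by 0.40 on the log2 scale (adjusted p = 0.0126), to 2027 ± 193 in ATF3 livers, against 2658 ± 106 in Null livers (SD, n = 4 each). Hist2h3c2, a replication-dependent H3 gene on another chromosome, rose (1.13, adjusted p = 0.0269). Hist4h4, an H4 gene outside the cluster, fell by 0.97 (adjusted p = 0.0127).

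Genes that make and handle histones were examined next, beside the 11.4% and 9.82% of all genes tested that rose and fell. Of 31 tested genes for transcription and 3′ processing of histone mRNA, 1 rose and none fell. That was Clp1, an RNA kinase of the cleavage machinery, with a log2 change of 0.61 (adjusted p = 0.0027). Lsm10, a subunit of the U7 particle that directs cleavage, had -0.59 and an adjusted p of 0.0533. Of 31 histone chaperones and carriers, 6 rose and 1 fell. Chaf1b and Chaf1a, subunits of the assembly factor CAF-1 that loads H3 and H4 on new DNA, rose by 1.08 and 0.67. Mms22l, which acts at stalled forks, rose by 0.95, Asf1b, an H3 and H4 chaperone, by 0.75, Hat1, which acetylates new H4, by 0.55, and Dnajc9 by 0.53. Rbbp4, another CAF-1 subunit that is also in other complexes, fell by 0.67 (adjusted p = 0.00195). Of 46 S phase genes, 23 rose and 3 fell, with a median log2 change of 0.56. Ccne1 and Cdk2, a cyclin and its kinase, were among those that fell. Mcm2, a subunit of the replicative helicase, had 353 ± 64.8 normalized counts in ATF3 livers and 87.3 ± 10.3 in Null livers (SD, n = 4 each). Rrm2, a subunit of ribonucleotide reductase, had 264 ± 48.6 in ATF3 livers and 87.4 ± 34.7 in Null livers (SD, n = 4 each). The Hist1 genes that rose and these S phase genes are measured in the same libraries, and whether they rose in the same cells was not tested.

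Markers of other liver cells were also examined, beside the same shares of all genes tested (11.4% higher and 9.82% lower). None of the tested Kupffer cell (8), endothelial (8), stellate (8), erythroid (6) or neutrophil and monocyte (3) markers was called. Of 9 lymphocyte markers 1 fell, Cd4, and their listed genes summed to 177 to 188 normalized counts in ATF3 livers and 214 to 295 in Null livers. The neutrophil and monocyte genes summed to 192 to 240.1 in ATF3 livers and 141 to 217 in Null livers, and Ly6g and Mpo were listed at 0 in all 8 libraries. Erythroid genes summed to 7662 to 14074 in ATF3 livers and 8458 to 13443 in Null livers. Of 7 bile duct markers Sox9 fell. Of 10 hepatocyte markers, all of which were detected, Ttr and Tat rose and Apoa1, Cps1, Pck1, Serpina1a and Tdo2 fell. The part of these cells in the changes of the Hist1 genes was not tested.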

How the data were processed

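Total RNA was extracted with a mirVana kit and made into libraries with a TruSeq Stranded Total RNA kit, per the labels' protocols. Bowtie2 and mm10 are named in the submitters' processing notes; the sources used here give no quantifier, annotation or strand setting. One table the authors deposited holds a signal, normalized counts per gene that are not whole, so no count model was run and limma, named in the design for that case, was used. The authors deposited TPM in a second table, used for levels per length after division by each library's median of ratios, and as an alternative. In it 26 gene names had turned into dates, and these entries were left out.

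The filter kept genes of at least 10 in 4 or more libraries, tested with limma 3.58.1 in R 4.3.3 (log2(value + 1), eBayes with a trend, 2-sided, Benjamini-Hochberg, threshold 0.05), after a check on simulated data. Libraries are numbered within each group by title. Libraries were compared for copies: any pair had at most 10 genes with identical values. The members and lists were chosen with earlier results of these data known. All 42 genes may be named, with values in every library for those past the threshold, the most abundant of each class and those whose call turns on 1 library; genes of other lists are named if past the threshold, or among the 4 with the smallest p. Transcripts and coordinates come from GENCODE vM21 on mm10, promoters from RefSeq on GRCm38.p6. The share of 31-base stretches found in other genes' transcripts measures sequence shared with them. Tables and figures used Python 3.11.15, pandas 2.3.3, numpy 2.4.6 and matplotlib 3.10.9. Alternatives changed scaling, filter, added constant, variance and weights, and left out each library. An S phase gene past the threshold is not reported here by name.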

Additional observations from a re-analysis of the deposited data

Results flagged for a closer look

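In 9 of the 84 groups of 4 values searched, 1 library lay far from the other 3 of its group. The cut used would set apart about 1 in 20 groups of independent, normally distributed values. These genes share libraries and reads, so that rate need not hold here. In ATF3 livers these were Hist1h2be in ATF3 2 (125 normalized counts, above the others), Hist1h2bn in ATF3 3 (44.5, below) and Hist1h2br in ATF3 2 (139, above). In Null livers they were Hist1h2bg in Null 4 (87.6, above), Hist1h4c in Null 4 (777, above), Hist1h2bq in Null 3 (47.9, above), Hist1h2bl in Null 1 (6.19, below), Hist1h3g in Null 2 (7.76, below) and Hist1h4i in Null 3 (11.7, below). Hist1h2bq and Hist1h2br are the near-identical copies whose values stand at 1 or the other gene by library.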

How the results depend on the processing

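Of 774 values of the 42 genes under 19 alternatives, 670 kept direction and side of the threshold, 50 lost the call, 34 gained it and 20 changed sign. Without each library in turn, 9 (without ATF3 4) to 21 (without Null 4) genes rose and 2 fell in every case, with medians of 0.66 to 0.95; over all genes, 1040 to 1965 rose and 851 to 1812 fell. The 10 calls that held with each library left out were Hist1h1a, Hist1h1c, Hist1h1d, Hist1h1e, Hist1h2ak, Hist1h3b, Hist1h4f, Hist1h4i, Hist1h4j and Hist1h4k. Of these, Hist1h1a, Hist1h1d, Hist1h3b, Hist1h4f and Hist1h4i lost the call in the TPM without rescaling, where Hist1h1c and Hist1h1e changed sign. Hist1h2ak, Hist1h4j and Hist1h4k kept it there too.

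With at least 50 in at least 4 libraries, 22 of the genes were tested, 7 rose, and the median was 0.59. Library weights gave 25 rises, with 2271 higher and 2130 lower over all genes. Scaling to equal sums, which moved the median of all genes by 0.13, gave 2466 higher and 838 lower. TPM without rescaling moved it by 0.75 and gave 219 higher and 47 lower; 10 of the genes rose, 0 fell (at an adjusted p under 0.05 with limma) and their median was 1.37. The cause of these differences was not tested. The sum of Hist1h2bq and Hist1h2br, an alternative chosen after seeing the data, gave 16 rises. The class sums without each library and from TPM as deposited were also added after seeing the data.

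Sign changes under TPM were Hist1h1c 0.44, Hist1h1e 0.30, Hist1h2ac 0.37, Hist1h2bk 0.30, Hist1h4c 0.67 and Hist1h4d 0.90, and under rescaled TPM Hist1h4h -0.0010. Hist1h4d was 0.030 with equal sums and 0.10 with weights, and Hist1h2ac 0.055 with weights. With each library left out, the log2 change of 5 genes that were not called spanned 0: Hist1h2bc from -0.074 to 0.20, Hist1h2bk from -0.51 to 0.22, Hist1h4b from -0.030 to 0.26, Hist1h4d from -0.19 to 0.10 and Hist1h4h from -0.085 to 0.11. Low values rest on few reads, about 6.38 per 10 normalized counts in Null 4.

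No paired analysis was possible because the numbers follow library titles within each group and pair no libraries.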
